A study of Rattus norvegicus with 2 samples.

Results

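A set of 10 genes of muscle protein breakdown were named for description: the muscle ubiquitin ligases Trim63 and Fbxo32, the transcription factors Foxo1 and Foxo3, and the autophagy genes Map1lc3a, Map1lc3b, Gabarapl1, Sqstm1, Bnip3 and Becn1. They were found by gene symbol in the annotation of the array, among probe sets (groups of probes against a transcript) annotated to a single gene. Of the 10 genes, 9 had such a probe set, and all 9 were measured, out of 9956 measured genes in all. Map1lc3b is annotated only together with another gene on the array and is not reported here.

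The data were 2 Affymetrix expression arrays of adductor muscle, from the inner thigh, of male Lewis rats of 275 g, whose age the labels do not give. In the stimulated group, the left hindlimb received 100 pricks with a steel needle of 0.14 mm diameter over an area of 10 mm by 10 mm, and muscle was taken 24 hours later. In the control group, muscle came from the right hindlimb, which was not pricked. Each group was 1 array, the number of rats is not stated, and no agent or genetic change is named for either group. No difference could therefore be tested, no p-value is given, and "higher" and "lower" compare these 2 samples.

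Skeletal muscle breaks down its own proteins by a pair of linked routes. In the first, ubiquitin ligases tag proteins for the proteasome, and the ligases MuRF1 (Trim63) and atrogin-1 (Fbxo32) are the best known markers of muscle wasting. In the second, autophagy, a membrane studded with proteins of the ATG8 family encloses cargo and delivers it to the lysosome. FOXO transcription factors are held out of the nucleus by AKT signalling when insulin or growth factors act, and switch on genes of both routes when that signal falls.

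Trim63 was the only gene of the 9 to differ by 1.5-fold or more, and it was higher in the stimulated limb. The other muscle ligase, Fbxo32, was lower in the same sample, by 1.34-fold, and each FOXO and autophagy gene differed by less than that. In all, 6 of the 9 genes lay above 0 on the log2 scale and 3 below, with a median log2 ratio of 0.15. Of all measured genes, 52.3% lay above 0, with a median of 0.019. One gene of 9 was at least 1.5-fold higher, against 6.59% of all measured genes, and 0 were at least 1.5-fold lower, against 6.94%. None of the 9 reached 2-fold in either direction, which 1.43% of all measured genes did upwards and 1.43% downwards. With so few genes these shares do not separate the 9 from the rest of the array, and the SD of their log2 ratios, 0.40, was close to that of all measured genes, 0.43.

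The measure throughout is the MAS5 signal, a linear intensity in arbitrary units. A log2 ratio is that of stimulated over control, after signals below 19.8, the median of all signals and here called the floor, were raised to it. The only error at hand came from genes read by a pair of probe sets, both above the floor in both samples. For a single probe set the SD of its log2 ratio was 0.36 in the 725 dimmest of these genes, 0.32 in the next 724 and 0.25 in the 725 brightest. It is called the probe set SD below, and it does not cover differences between limbs or rats. The log2 ratios of all measured genes ran from -0.22 at the 25th percentile to 0.25 at the 75th, and from -0.66 at the 5th to 0.65 at the 95th.

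Both samples carried the defining transcripts of skeletal muscle: all 8 general fibre markers listed were above the floor on both arrays, with a median log2 ratio of -0.027. Other cell types and fibre types moved along with the comparison. All 15 monocyte and macrophage markers were above 0, 10 of them by at least 1.5-fold, with a median log2 ratio of 0.78 and none below the floor. Their summed signal was 9517 after stimulation against 3363 without it. Gpnmb (3165 against 188) and Lgals3 (2027 against 599) made up much of that gap. The smallest ratios were those of Cd14 (0.084), Cd163 (0.090) and Itgam (0.15). Of 9 slow-fibre markers 8 were above 0 and 6 at least 1.5-fold higher, with summed signals of 5291 and 4604. Of 12 fast-fibre markers 11 were below 0 and 0 were 1.5-fold lower, with sums of 99474 and 132347 and a median of -0.42. The other, Myh2, was 1.995-fold higher, and Myh1 lay at -0.021. General fibre markers split 4 above and 4 below 0, with Acta1 and Ckm at -0.47 and -0.44, near the fast-fibre median. Myh7 and Tnnt1, both slow-fibre genes, were below the floor in the control. All 8 measured endothelial markers (summed signal 604 against 1146, Flt1 below the floor in the stimulated sample) and all 5 measured adipocyte markers (1304 against 3003, Plin1 and Cidec below it) lay below 0. In a whole-tissue sample, fewer cells of a type and less RNA per cell cannot be told apart. The 18 hybridisation spike-ins (foreign transcripts added to every sample) all had lower signals in the stimulated sample, by a median log2 ratio of -0.38. Scaling to them moved the median of all genes to 0.39. Ratios below are those of the authors' scaling, where the median gene lay at 0.019, and "above" or "below 0" refers to that scaling.

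**Figure D1:**
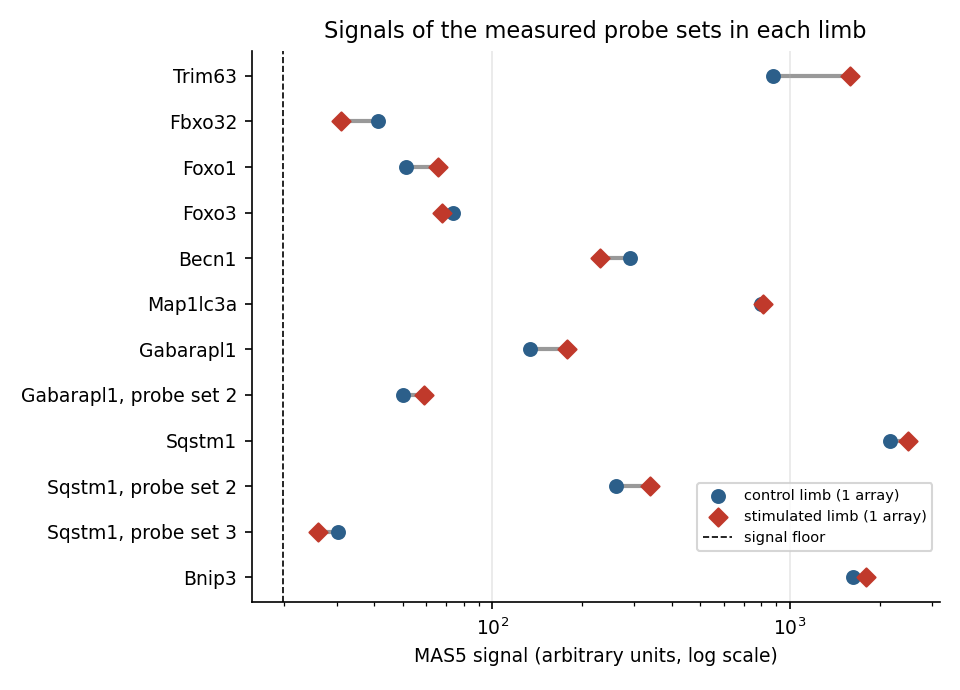
MAS5 signals on a log axis of the 12 measured probe sets of the 9 genes, with the control limb as circles, the stimulated limb as diamonds (1 array each) and the floor of 19.8 as a dashed line. Trim63 shows the widest gap, from 874 to 1584, while the 2 symbols of Map1lc3a nearly coincide.

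Trim63 (Entrez gene 140939) encodes MuRF1, a ligase of the sarcomere that tags thick-filament proteins. Its probe set read 1584 in the stimulated limb and 874 in the control. That is a 1.81-fold higher signal, a log2 ratio of 0.86, which is 3.49 times the probe set SD of 0.25. Of the 9956 measured genes, 229 had a higher ratio, so Trim63 stood above 97.7% of them. A single probe set represents Trim63, so its ratio has no second reading on these arrays.

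Fbxo32 (Entrez gene 171043) encodes atrogin-1, the F-box subunit that brings substrates to an SCF ubiquitin ligase. Its signal was 30.9 in the stimulated limb and 41.3 in the control, both close to the floor. The log2 ratio of -0.42 was 1.16 times the probe set SD of 0.36, and 12.4% of measured genes had a lower one. The ratios of the pair of ligases had opposite signs and lay 1.27 apart, against an SD of 0.43 for the difference of 2 such probe sets. The sign for Fbxo32 rests on a dim probe set, and under spike-in scaling its ratio was close to 0, at -0.033. The macrophage and slow-fibre markers given above were also higher in the stimulated sample, and their part in the Trim63 signal was not tested.

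The promoter letters of these genes bear on the FOXO theme, since Trim63 is a textbook FOXO target. RefSeq promoter windows on rat build GRCr8, running from 250 bases before to 50 after the start, were at hand for 6 of the 10 genes: Trim63, Foxo1, Gabarapl1, Sqstm1, Bnip3 and Map1lc3b. They were searched on both strands for the FOXO core GTAAACA, for TCACGTGA, a form of the element bound by TFEB, and for the E-box CACGTG that it contains. GTAAACA occurred in 1 of the 6, Trim63, and in 3.78% of 33469 promoter windows. In Trim63 it lies in reverse, read as TGTTTAC, at positions -205 to -199 from the start that sets the window. CACGTG occurred in 1 of the 6, Bnip3, at positions -99 to -94 from the start, and in 6.42% of windows, and TCACGTGA in 0 of the 6 and 0.777% of windows. These shares are over all windows, whether or not the gene was measured. Of the 8349 measured genes with a window, 213 carried GTAAACA, 837 CACGTG and 149 TCACGTGA. The Trim63 and Bnip3 promoters are shown, up to the outermost annotated start, because they were the only ones with a match, which is in capitals. For Trim63 that outermost start lies upstream of the start from which positions are counted, so 223 bases are printed. Trim63 lies at chr5:151816986-151817208 on the plus strand and Bnip3 at chr1:203154963-203155212 on the minus strand.
Trim63: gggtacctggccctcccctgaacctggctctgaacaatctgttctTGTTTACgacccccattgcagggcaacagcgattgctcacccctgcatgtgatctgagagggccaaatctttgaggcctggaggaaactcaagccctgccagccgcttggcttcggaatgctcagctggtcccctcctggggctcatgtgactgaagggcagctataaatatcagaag
Bnip3: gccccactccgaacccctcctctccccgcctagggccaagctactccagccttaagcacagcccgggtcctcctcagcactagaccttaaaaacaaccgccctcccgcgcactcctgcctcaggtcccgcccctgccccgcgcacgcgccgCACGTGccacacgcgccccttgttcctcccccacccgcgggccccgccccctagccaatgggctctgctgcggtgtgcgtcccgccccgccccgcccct

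A match describes letters and not a bound site. Over the array, the 213 measured genes with GTAAACA in the window had a median log2 ratio of 0.010, beside 0.026 for all 8349 measured genes with a window. Carrying the core was thus not accompanied by a higher median in this sample.

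Foxo1 (Entrez gene 84482) encodes a FOXO factor that switches on the ligase genes in wasting muscle. Its signal was 65.8 in the stimulated limb and 51.3 in the control, with a log2 ratio of 0.36. That is equal to the probe set SD of 0.36, and its other 2 probe sets lay below the floor in both samples. Foxo3 (Entrez gene 294515), the factor best known for driving atrogin-1 and autophagy genes, read 67.7 against 73.6. Its log2 ratio of -0.12 was smaller than the probe set SD of 0.32, its other 2 probe sets also lay below the floor in both samples, and under spike-in scaling the ratio had the opposite sign, 0.26. The ratios of the pair differed by 0.48, about the SD of 0.48 for such a difference.

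**Figure D2:**
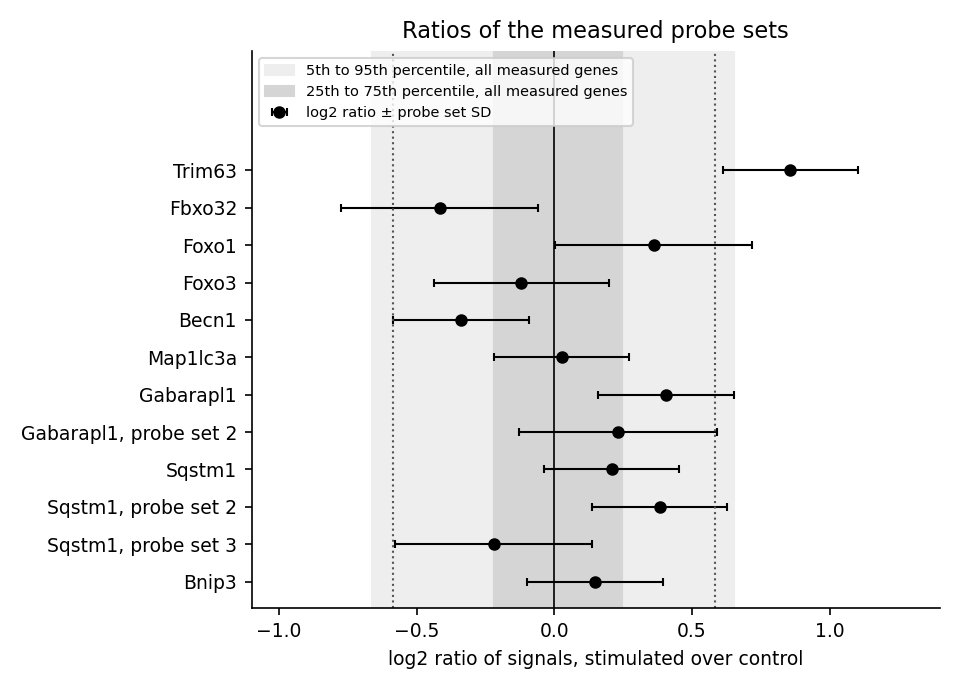
Log2 ratios of stimulated over control for the 12 measured probe sets, with bars of ± 1 probe set SD for their signal range. Grey bands span the 25th to 75th and the 5th to 95th percentiles of all measured genes and dotted lines a 1.5-fold difference, which only Trim63, at 0.86, exceeds.

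Becn1 (Entrez gene 114558) encodes Beclin 1, a subunit of the lipid kinase complex that starts the autophagosome membrane. It read 229 in the stimulated limb and 290 in the control, 1.26-fold lower. The log2 ratio of -0.34 was 1.38 times the probe set SD of 0.25. It turned to 0.045 under spike-in scaling and stayed below the median gene under all 9 alternatives run. The other floors and the probe set choices could not change the Becn1 ratio itself, since this gene has a single probe set.

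The ATG8-family proteins are attached to lipid on the growing membrane and hold cargo there. Map1lc3a (Entrez gene 362245), which encodes LC3A, read 812 in the stimulated limb and 797 in the control. Its log2 ratio of 0.027 was the closest to 0 of the 9 genes, and turned slightly negative with quantile normalization (-0.029) and with signal-dependent centring (-0.0058). Gabarapl1 (Entrez gene 689161), a GABARAP-type member of the family and a FOXO target in muscle, read 178 against 134. Its log2 ratio of 0.41 was 1.65 times the probe set SD of 0.25, the second largest multiple among the 9 genes. A second, dimmer Gabarapl1 probe set read 58.7 against 50.02 and pointed the same way, at 0.23. Gabarapl1 and Map1lc3a differed by 0.38, slightly more than the SD of 0.35 for such a difference.

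Sqstm1 (Entrez gene 113894) encodes p62, which binds both ubiquitin and LC3 and so links the ubiquitin system to autophagy. It had 4 probe sets. The brightest read 2498 in the stimulated limb and 2163 in the control (log2 ratio 0.21), and the next read 339 against 260 (0.38). The third, near the floor, read 26.0 against 30.3 (-0.22), and the fourth was below the floor in both samples. The brightest ratio was smaller than the probe set SD of 0.25, and the second probe set alone exceeded it. Macrophages express this gene as well as muscle fibres, and the part of the macrophage markers above in its ratio was not tested.

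Bnip3 (Entrez gene 84480) encodes a receptor on the mitochondrial surface that recruits LC3 for mitophagy, and its promoter is the second one shown above. It read 1801 in the stimulated limb and 1625 in the control. The log2 ratio of 0.15 was smaller than the probe set SD of 0.25, and Bnip3 had a single probe set. Its paralogue Bnip3l, chosen for that relation after values were seen, read 588 against 529, at 0.15, but a second Bnip3l probe set gave -0.051.

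**Figure D3:**
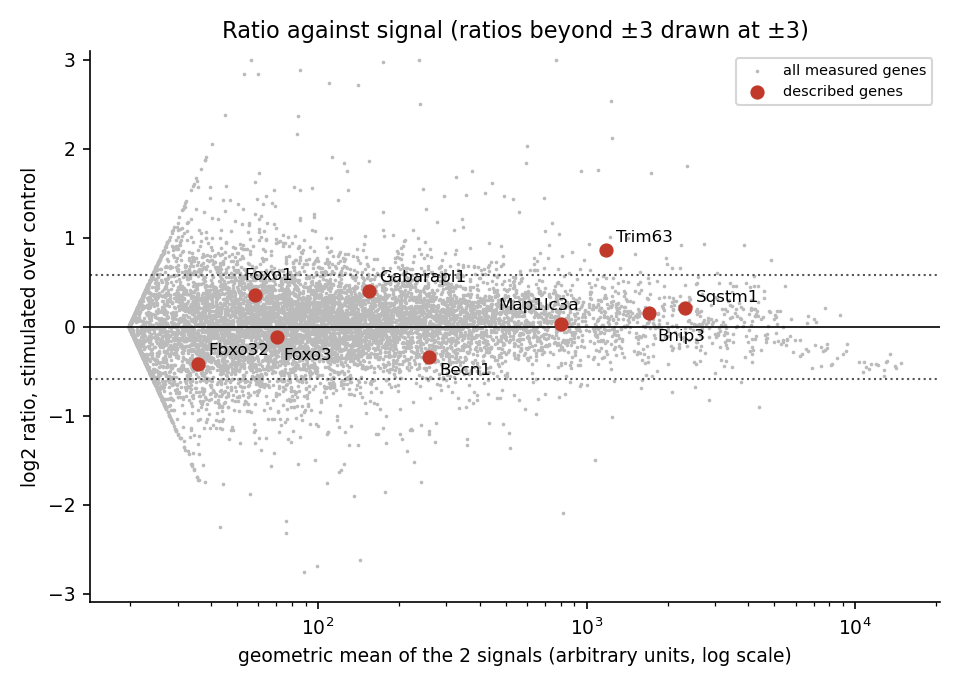
Log2 ratio against the geometric mean of the 2 signals (log axis) for 9956 measured genes in grey and the 9 described genes in red, with dotted lines at 1.5-fold. Fbxo32 lies close to the floor, where ratios scatter widely, Foxo1 and Foxo3 lie further up in the dense part of the cloud, and Trim63 lies in the bright range near the upper edge of the cloud.

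The rest of both routes was described through 9 lists of other genes, 157 measured genes in all. Of these, 79 lay above 0 (52.3% of all genes did) and 78 below, with a median log2 ratio of 0.0074. A total of 7 genes, or 4.46%, were at least 1.5-fold higher and 3, or 1.91%, at least 1.5-fold lower. The shares over all genes were 6.59% and 6.94%, but they are not like for like. All measured list genes were above the floor on both arrays, as were 8995 of the 9956 measured genes. The 9 medians lay between -0.16 and 0.13.

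Among 22 measured ubiquitin ligases and their subunits, 13 lay above 0 and 9 below, with a median of 0.093. The one past 1.5-fold was Asb5, a muscle-expressed SOCS-box protein of a cullin ligase, 1.71-fold higher (831 against 485), with a second probe set at 0.66. Rbx1, the RING subunit of cullin ligases, had a log2 ratio of 0.51 but a second probe set at -0.23, and Traf6, a ligase of inflammatory signalling, had -0.51 with further probe sets at -0.11 and -0.16. Trim54, which encodes MuRF3, the paralogue of MuRF1, read 1529 against 1435, a log2 ratio of 0.092, and was named after values were seen. The large Trim63 ratio was therefore not matched by this relative. Of 17 genes for ubiquitin, its activating and conjugating enzymes and deubiquitinases, 8 lay above 0 and 0 reached 1.5-fold, with a median of -0.021. The largest ratios were those of the conjugating enzyme Ube2n (0.49, second probe set -0.061), the hydrolase Uchl3 (0.48) and the deubiquitinase Usp19 (-0.34, second probe set 0.40).

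The list of factors known to control the ligase genes held the largest ratios outside the FOXO targets. Of 14 measured genes, 6 lay above 0 (52.3% of all genes) and 2 were at least 1.5-fold higher (6.59% of all genes), with a median of -0.038. Tnfrsf12a, the receptor of the wasting cytokine TWEAK, was 2.32-fold higher (521 against 225). Myog, the differentiation factor myogenin, which acts on the promoters of both ligases in denervated muscle, was 1.99-fold higher (332 against 167). Smad2, a carrier of myostatin signals, had a log2 ratio of -0.44.

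Of 21 genes of the FOXO family and of insulin, AKT, mTOR and AMPK signalling, 14 lay below 0, as did 4750 of all 9956 measured genes. The list median was -0.16, beside 0.019 for all genes. Prkaa2, the muscle AMPK catalytic subunit, was 1.53-fold lower (1025 against 1563). Foxo4, a further FOXO factor, read 251 against 367 (-0.55), and Rictor, a subunit of the kinase complex that phosphorylates AKT, had -0.53. Under spike-in scaling the median of this list was 0.23, the lowest of the 9 lists, whose medians then ran up to 0.52, against 0.39 for all genes.

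Other genes known as FOXO targets went both ways, with 11 of 19 above 0 (52.3% of all genes), 3 at least 1.5-fold higher (6.59% of all genes), 2 at least 1.5-fold lower (6.94%) and a median of 0.037. Gadd45a, a growth arrest gene that is also induced in denervated muscle, was 2.83-fold higher (705 against 249). Ctsl, a lysosomal protease, was 1.76-fold higher (second probe set 0.17), and the cell cycle inhibitor Cdkn1a was 1.61-fold higher (second probe set -0.013). The transcription factor Klf4 was 2.12-fold lower (189 against 401) and Angptl4, an inhibitor of lipoprotein lipase, was 1.91-fold lower (64.8 against 124). Pdk4, a FOXO target that restrains glucose oxidation, was named after values were seen and read 704 against 750, a log2 ratio of -0.091, with a second probe set at -0.57. With the second brightest probe set the median of the targets was -0.11. Several of these genes are also expressed in cells whose markers differed, and the part of those cells was not tested.

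**Figure D4:**
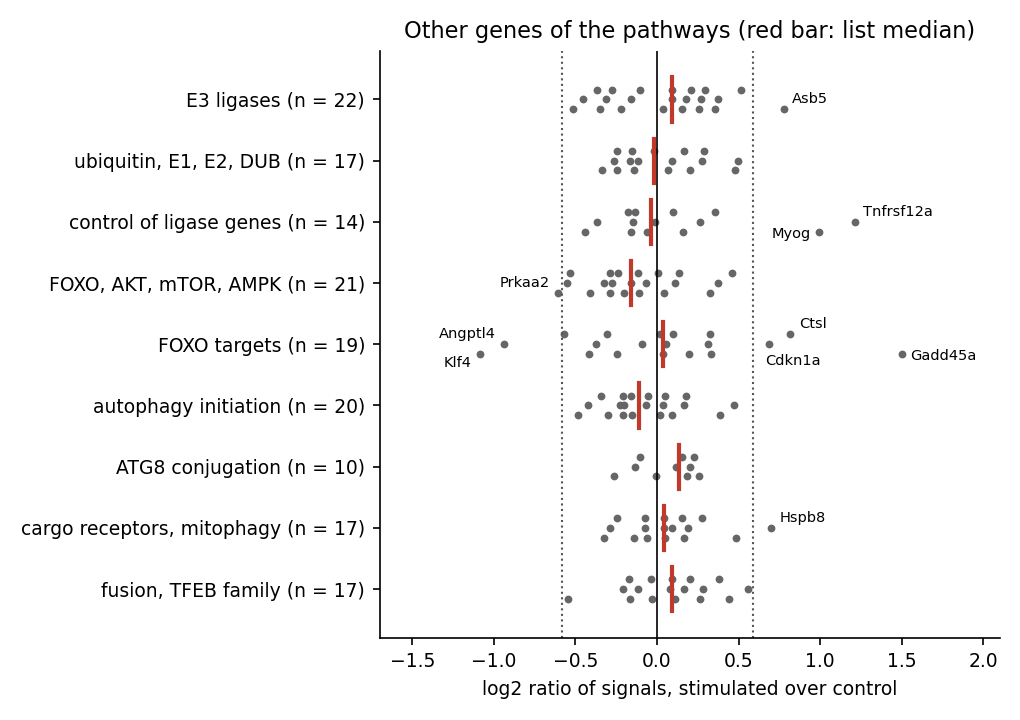
Log2 ratios of stimulated over control for the measured genes of 9 pathway lists (grey points, 1 per gene), with the list median as a red bar and dotted lines at 1.5-fold. Labelled genes are those beyond 1.5-fold, led by Gadd45a at 2.83-fold, and all medians lie close to 0.

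The core autophagy machinery differed little. Among 20 genes of initiation and nucleation, 12 lay below 0 (4750 of 9956 over all genes) and 0 reached 1.5-fold, with a median of -0.11. The largest ratios were those of Bcl2l1, an inhibitor that binds Beclin 1 (-0.48, second probe set -0.52), the membrane protein gene Vmp1 (0.47) and the lipid transfer gene Atg2a (-0.42). Of 10 genes for attaching ATG8 proteins to lipid, 6 lay above 0 and 0 reached 1.5-fold on their brightest probe set, with a median of 0.13. With the second brightest probe set in its place that median was -0.11, while second probe sets of Atg7 and Atg5 gave 0.95 and 0.66. Gabarap, the closest relative of Gabarapl1 listed, had 0.25 but a second probe set at -0.39. Atg10, the conjugating enzyme for ATG12, had -0.27, and the processing protease Atg4d had 0.22.

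Cargo receptors and genes of mitophagy and aggregate handling had 10 of 17 members above 0 and a median of 0.041. Hspb8, a small heat shock protein that feeds damaged proteins to autophagy, was 1.62-fold higher (2536 against 1562), although a second probe set gave 0.041. The ubiquitin-binding shuttle Ubqln2 had 0.48, and Tp53inp2, a muscle autophagy cofactor, had -0.33 with a second probe set at -1.36. Of 17 genes of autophagosome fusion and the TFEB family, 10 lay above 0 and 0 reached 1.5-fold, with a median of 0.090, which was -0.031 with the second brightest probe set. Tfe3, a regulator of lysosomal genes, had the largest ratio, 0.56. The tethering subunits Vps18 and Vps33a had -0.55 and 0.44, with further probe sets from -0.78 to 0.35.

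**Figure D5:**
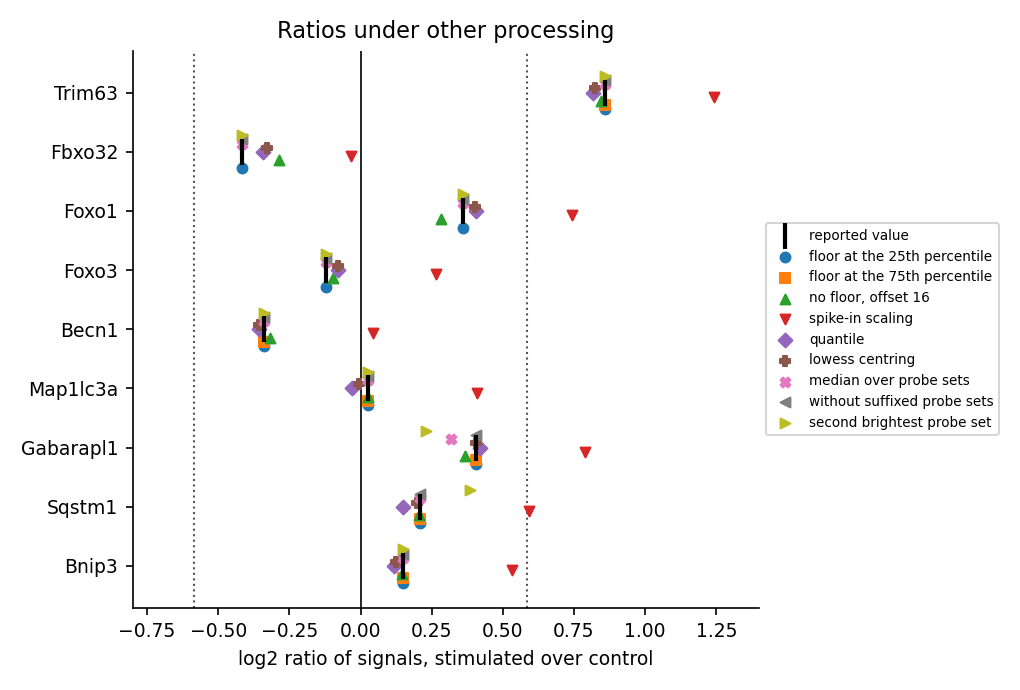
Log2 ratio of each of the 9 genes as reported (black bar) and under the alternatives of floor, scaling and probe set choice (coloured symbols), with dotted lines at 1.5-fold. Trim63 stays between 0.82 and 1.24, and scaling to the spike-ins (red triangles) moves all 9 genes to the right together.

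Under the 9 alternatives, the Trim63 log2 ratio ran from 0.82 to 1.24 and stayed beyond 1.5-fold. The other floors and the probe set choices could not change it, since Trim63 has a single, bright probe set. Only the offset and the changes of scaling acted on it. Fbxo32 stayed below 0 in the 8 alternatives in which it was measured, from -0.42 to -0.033. Its single probe set was likewise untouched by the lower floor and by the probe set choices. With the floor at the 75th percentile, Fbxo32, Foxo1 and Foxo3 were no longer measured.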

How the data were processed

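The deposited table held a linear signal intensity per probe set and array, which the authors computed with MAS5, per the submitters' processing notes. Its version and scaling target are not stated in those notes. The 2% trimmed mean was 76.5 on both columns. Of 31099 probe sets, 57 were manufacturer's controls. Of the rest, 20826 were annotated to 1 gene, 436 to several (left out) and 9780 were unnamed here. Symbols were updated by gene identifier through the RefSeq table (GRCr8).

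From these signals, a gene was counted as measured where either array reached the floor, and was represented by its brightest measured probe set. With 1 array per group, folds of 1.5 and 2 served as descriptive limits and nothing was tested. The number of arrays limits the precision. The members and gene lists were chosen with earlier results of these data known. The text names all members, the 3 largest ratios of each list measured on both arrays, and every list gene past 1.5-fold. Ratios were computed in Python 3.11.15 (numpy 2.4.6, pandas 2.3.3) and checked on simulated data. The simulation placed differences of 2-fold or more in genes well above the floor. It therefore did not cover smaller ratios or dim genes such as Fbxo32, Foxo1 and Foxo3. Alternatives changed the floor, the scaling or the probe set per gene.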

Additional observations from a re-analysis of the deposited data

How the results depend on the processing

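No paired analysis was possible because each group had 1 array. The median of the 9 genes, the counts of the 9 and the shares of all genes were recomputed under 9 alternatives. Trim63, the only gene of the 9 past 1.5-fold as reported, stayed higher throughout. Foxo3 and Becn1 changed sign under spike-in scaling, and Map1lc3a did so with quantile normalization and with signal-dependent centring. With scaling to the spike-ins, the median log2 ratio of the 9 genes was 0.53 and 4 were at least 1.5-fold higher. Under that scaling 8477 of 9986 measured genes lay above 0, since all ratios moved up together. Of the same 9986, 2822 were at least 1.5-fold higher and 181 lower, and 535 at least 2-fold higher and 44 lower. Beside these, the reported counts of 9956 measured genes were 5206 above 0, 656 and 691 past 1.5-fold, and 142 and 142 past 2-fold. A floor at the 25th percentile left more measured genes, 12768, with 1328 and 1622 past 1.5-fold, and 474 and 596 past 2-fold. A floor at the 75th percentile left 5817 measured genes, with 3259 above 0, 271 and 199 past 1.5-fold, and 52 and 49 past 2-fold. The 3 genes of the set lost at that floor have no value there. Quantile normalization, signal-dependent centring, an offset of 16 in place of the floor and the probe set choices moved none of these counts by over 1.5 times. Signs of list medians near 0 did depend on them: the second brightest probe set turned those of ATG8 conjugation, FOXO targets and fusion, the median over probe sets those of FOXO targets (-0.11) and fusion (-0.014), and quantile normalization those of FOXO targets (-0.0074) and of ubiquitin, E1 and E2 genes (0.013). The last also turned with the lower floor (0.023), the offset (0.0066) and signal-dependent centring (0.0046), and spike-in scaling put all 9 above 0. Low signal over background limits Fbxo32 most.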

Other observations

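Some autophagy and signalling genes had probe sets whose ratios lay apart by more than the SD of such a difference, which was 0.51 in the dimmest genes. For Atg7, the enzyme that activates ATG8 proteins, the brightest probe set (50.8 against 44.2) gave a log2 ratio of 0.20 and a dimmer one 0.95. For Atg5 these were -0.0047 and 0.66. For Akt1 they were 0.33 and -0.67. The 4 brightest measured probe sets of Nedd4, a ligase induced in unloaded muscle, were lower, at -0.22, -0.38, -0.65 and -0.66. Both measured probe sets of Fbxo30, a ligase of atrophying muscle, were higher, at 0.27 and 0.93. All of these genes were picked after their values were seen.

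The 149 measured genes with TCACGTGA in the promoter window had a median log2 ratio of 0.14, beside 0.026 for all 8349 measured genes with a window. The 837 with CACGTG had a median of 0.055. These are descriptions of 2 arrays, with no test.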
